A study of Mus musculus with 6 samples.

Results

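The 4 syndecan genes of the mouse, Sdc1, Sdc2, Sdc3 and Sdc4, and Gm12970, a noncoding gene annotated on the opposite strand inside Sdc3, were examined in the testis of mice without PAD2 and of mice without PAD2 and PAD4. These 5 genes, of 55536 in the count table, were chosen by family name and by position, and the family was selected on the higher count of Sdc3 in the double knockout. The values of Sdc3 and Gm12970 in that genotype are therefore a description and carry no test. All 5 genes passed the filter on low counts, Gm12970 only through the double knockout libraries.

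Syndecans are proteoglycans that span the cell membrane, with an outer part that carries heparan sulphate chains, 1 membrane span and a short cytoplasmic tail. The chains hold growth factors and matrix proteins at the cell surface, and the end of the tail is bound by PDZ-domain proteins such as syntenin, the product of Sdcbp. Sdc1 is best known from epithelia and plasma cells, Sdc2 from mesenchymal cells, Sdc3 from the nervous system and Sdc4 from focal adhesions of many cell types.

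PAD enzymes make citrulline out of arginine within proteins. The study examined mice to learn whether PAD2 and PAD4, members of this group, bear on hormone signalling. WT mice were of the FVB/NJ strain. P2KO mice were FVB/NJ mice homozygous for a gene trap of Padi2, in which LacZ and neomycin sequence stands in place of the coding part of exon 1. DKO mice carried that same Padi2 allele together with a deletion of 4 nucleotides in exon 1 of Padi4, which was made by injecting Cas9 and a guide RNA into P2KO embryos. All DKO mice came from 1 established line, so the Padi4 deletion cannot be told apart from anything else that this line carries, and mice lacking PAD4 alone were not analysed here. Testes were taken at 4 months of age from 2 mice per genotype, and each mouse gave 1 library of poly(A)-selected, strand-marked RNA.

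Summed over genes, the WT libraries held 21939393 and 26081756 counts, those of P2KO 27306679 and 23072179, and those of DKO 26068171 and 23366962. Normalized counts are counts scaled for library size (after TMM), with a size factor whose geometric mean over the 6 libraries is 1. Genotypes were compared with edgeR's quasi-likelihood test over 20744 genes, with Benjamini-Hochberg adjustment, and a gene with an adjusted p under 0.05 is called. The p-values measure only the spread between 2 mice per genotype, with the help of the spread of all other genes. In whole testis, fewer cells of a type and less RNA per cell cannot be told apart.

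The targeted genes were read first. For Padi2 there were 47 and 64 counts in WT, 100 and 55 in P2KO and 59 and 83 in DKO. These counts overlapped between the genotypes, so Padi2 does not check the labels, and each genotype is named here as the library was labelled. The study itself found no Padi2 transcript by RT-PCR of salivary gland in P2KO and DKO mice. It also found no PAD2 protein in their spleen by Western blot. Those measures and tissues differ from a count over all exons of the gene in testis. Padi4 had 20 and 43 counts in WT, 11 and 10 in P2KO and 4 in each DKO library, and its log2 fold change in DKO against WT was -2.94 (SE 0.513, adjusted p = 2.78e-04 by edgeR). Padi4 was not called in DKO against P2KO (log2 fold change -1.31, SE 0.628, adjusted p = 0.404 by edgeR). In P2KO against WT its log2 fold change was -1.63 (SE 0.423, adjusted p = 0.0959 by edgeR), and it was called there with no filter and without WT replicate 1. Both genes lie on chromosome 4, as does Sdc3, which is 10.1 Mb from Padi2 and 9.92 Mb from Padi4.

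Sdc3 was low in WT and P2KO testes and high in both DKO testes. For this gene (ENSMUSG00000025743) the WT libraries held 79 and 106 counts, those of P2KO 104 and 86, and those of DKO 1150 and 1079. After scaling these were 89.0 and 98.1 normalized counts in WT, 92.2 and 91.6 in P2KO, and 1102 and 1144 in DKO. The WT and P2KO libraries overlapped, and each DKO library stood far above all the others. The mean of the DKO libraries was 1123 ± 30.0 normalized counts (SD, n = 2), against 93.6 ± 6.46 in WT and 91.9 ± 0.489 in P2KO. The fitted difference was 11.9-fold against WT and 12.2-fold against P2KO. The contrast between P2KO and WT was not used in the choice, and there the log2 fold change of Sdc3 was -0.03 (SE 0.158, adjusted p = 0.981 by edgeR).

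Gm12970 (ENSMUSG00000087451) was at 0 in every WT and P2KO library and had 339 and 293 counts in the DKO libraries. In normalized counts the DKO libraries held 325 and 311, close to each other and with nothing in the other 4 libraries. A count of 0 allows up to 3 counts per library. Against that floor the DKO mean was at least 103-fold higher than WT and at least 108.5-fold higher than P2KO. Floors cover counting error only. Gm12970 had 29.5 counts for every 100 counts of Sdc3 in DKO replicate 1 and 27.2 in DKO replicate 2. Per length, as counts per kilobase of merged exons, scaled for library size by TMM (RPKM), its level was 3.04 and 2.80 times that of Sdc3 in those libraries. Gm12970 is far shorter than Sdc3, with 581 against 5989 exonic base pairs, so its level per length was above that of Sdc3 although its count was below.

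**Figure D1:**
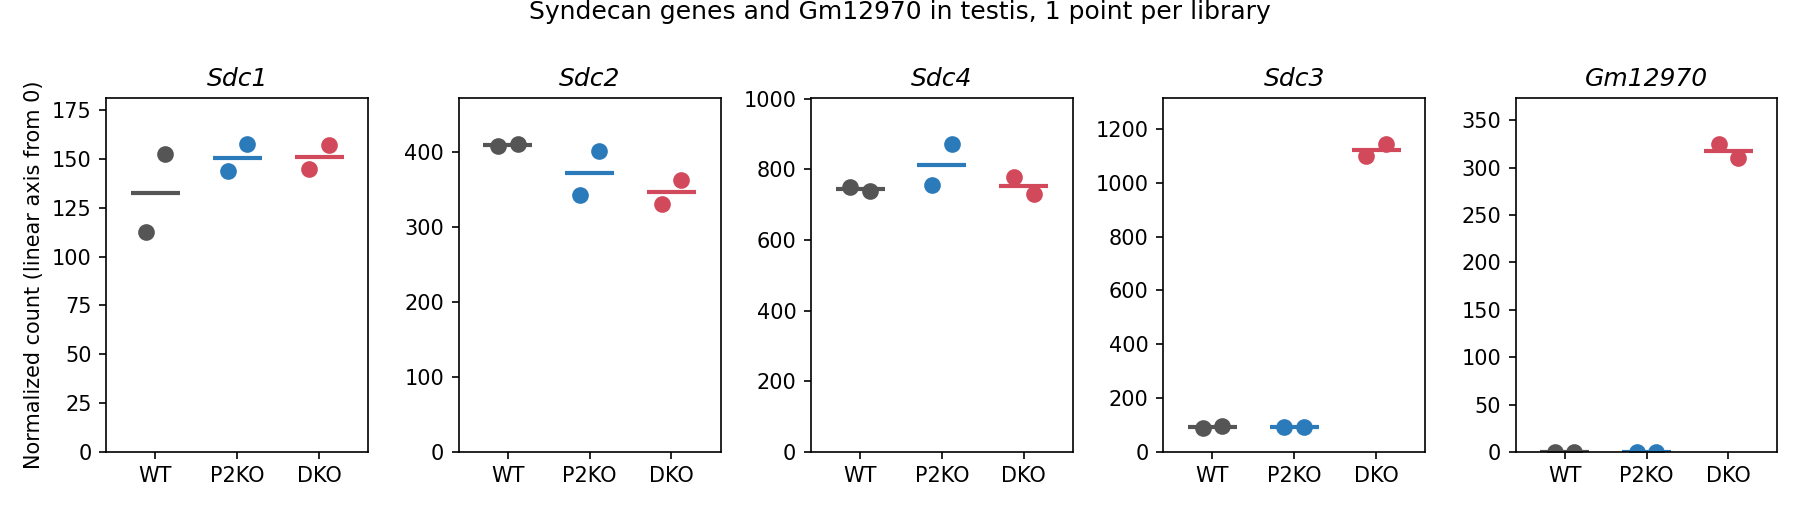
Normalized count (y axis, linear from 0) of each gene in WT, P2KO and DKO testes, with 1 point per library and a line at the mean of 2 libraries. Sdc3 and Gm12970 stand at 1102 and 1144 and at 325 and 311 in DKO, far above the other 4 libraries, while Sdc1, Sdc2 and Sdc4 lie at similar heights in all 3 genotypes.

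The other syndecans were read library by library. Sdc1 (ENSMUSG00000020592) had 113 and 153 normalized counts in WT, 144 and 158 in P2KO and 145 and 157 in DKO. The 3 genotypes overlapped, and WT replicate 1 was the lowest library. Its log2 fold change was 0.17 in P2KO against WT (SE 0.161), 0.17 in DKO against WT (SE 0.162) and 0.00 in DKO against P2KO (SE 0.159). Without WT replicate 1, the log2 fold changes against WT were -0.03 in both knockouts, and upper-quartile scaling turned the difference between DKO and P2KO to -0.01.

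Sdc2 (ENSMUSG00000022261) had 409 and 411 normalized counts in WT, 343 and 402 in P2KO and 330 and 364 in DKO. Both WT libraries lay above all 4 knockout libraries, and P2KO and DKO overlapped. The log2 fold change in DKO against WT was -0.24 (SE 0.110), with an adjusted p of 0.296 by edgeR, so the lower values did not pass the threshold. It was -0.14 (SE 0.108) in P2KO against WT and -0.10 (SE 0.110) in DKO against P2KO. In P2KO against WT the log2 fold change was -0.03 without P2KO replicate 1 and -0.26 without P2KO replicate 2.

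Sdc4 (ENSMUSG00000017009) had 749 and 738 normalized counts in WT, 756 and 871 in P2KO and 777 and 730 in DKO. P2KO replicate 2 was the highest library, and WT and DKO overlapped. The log2 fold change was 0.13 in P2KO against WT (SE 0.0854), 0.02 in DKO against WT (SE 0.0861) and -0.11 in DKO against P2KO (SE 0.0851). In P2KO against WT it was 0.23 without P2KO replicate 1 and 0.02 without P2KO replicate 2. With upper-quartile scaling the difference between DKO and WT became -0.002.

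None of these 3 syndecans was called in any of the 3 comparisons by edgeR, and none by DESeq2, which on 2 genotypes gave no adjusted p for Sdc1 and Sdc2 in DKO against P2KO. At an unadjusted p under 0.05 there was 1, Sdc2 in DKO against WT, beside 8.57% of all tested genes in P2KO against WT, 14.1% in DKO against WT and 11.8% in DKO against P2KO. Over all tested genes, 0.198% were called higher and 0.14% lower in P2KO against WT, 2.06% higher and 1.16% lower in DKO against WT, and 0.607% higher and 0.598% lower in DKO against P2KO. All of these shares are over the whole fit, which includes Sdc3 and Gm12970. With upper-quartile scaling, the calls in DKO against WT were 367 higher and 322 lower, in place of 428 and 240. They were 762 higher and 303 lower without WT replicate 1, and 217 higher and 239 lower without WT replicate 2. The comparisons of P2KO and of DKO with WT share the same 2 WT libraries, so their values are not independent of each other.

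Per length, Sdc4 was the highest syndecan in every genotype, at 11.9 ± 0.128 RPKM in WT, 13.0 ± 1.30 in P2KO and 12.1 ± 0.525 in DKO (SD, n = 2). In WT testes the order was Sdc4, Sdc2 at 4.74 ± 0.0170 RPKM, Sdc1 at 1.42 ± 0.303 RPKM and Sdc3 at 0.637 ± 0.0439 RPKM. In DKO testes Sdc3 stood next to Sdc4 at 7.64 ± 0.204 RPKM, with Sdc2 at 4.01 ± 0.271 RPKM and Sdc1 at 1.61 ± 0.0928 RPKM below it. Within each genotype no library of one syndecan overlapped those of another, and the order was the same with the length of the longest transcript in place of merged exons. Among 15622 tested protein-coding genes, 20.6% had a lower level than Sdc3 in WT, 20.1% in P2KO and 65.7% in DKO. Sdc3 thus went from the lower part of the range of testis genes to above its median of 3.52 RPKM in DKO.

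The summed level of the 4 syndecans was 18.5 and 18.9 RPKM in WT, 18.2 and 20.9 RPKM in P2KO and 25.3 and 25.4 RPKM in DKO. Sdc3 made up 3.27% and 3.54% of that sum in WT, 3.44% and 2.98% in P2KO, and 29.6% and 30.7% in DKO. The DKO sum was above that of the other libraries. The family was selected on Sdc3, so this sum is a description and carries no test.

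The 4 genes are spread over the genome, on chromosome 12 (Sdc1), 15 (Sdc2), 4 (Sdc3) and 2 (Sdc4), and they differ most in the part that encodes the outer domain. The part that encodes the cytoplasmic tail is alike, and its last bases are shown since reads could be split between genes only where they are identical. Each line gives the last 99 coding bases, stop codon included, of transcripts Sdc1-201, Sdc2-201, Sdc3-201 and Sdc4-201 (GENCODE M21, GRCm38), with the last 12 bases before the stop codon in capitals. All lie within 1 exon, at chr12:8791709-8791807 (+), chr15:33032442-33032540 (+), chr4:130822711-130822809 (+) and chr2:164426086-164426184 (-).
Sdc1: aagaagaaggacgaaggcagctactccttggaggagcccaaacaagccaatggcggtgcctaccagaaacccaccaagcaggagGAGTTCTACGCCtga
Sdc2: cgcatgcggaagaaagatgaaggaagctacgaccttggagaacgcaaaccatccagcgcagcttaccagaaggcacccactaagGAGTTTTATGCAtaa
Sdc3: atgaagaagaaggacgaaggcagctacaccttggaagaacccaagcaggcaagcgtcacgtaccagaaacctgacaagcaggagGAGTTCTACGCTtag
Sdc4: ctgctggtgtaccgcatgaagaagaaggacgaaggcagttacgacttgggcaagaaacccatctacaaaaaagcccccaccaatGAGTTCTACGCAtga
In the capitals, Sdc3 shares 11 of 12 bases with Sdc1, 11 with Sdc4 and 9 with Sdc2. Over whole transcripts, the longest run of identical bases between Sdc3 and another syndecan was 29, with Sdc4, and it was 27 with Sdc1 and 11 with Sdc2. No other syndecan is a near-identical copy of Sdc3.

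Sdc3 runs along the plus strand at chr4:130792537-130826319 (GRCm38). Its transcript Sdc3-201 has 5 exons, and Gm12970 lies at chr4:130811617-130812326 on the minus strand, within the 24042 bp of the first intron of that transcript. Gm12970 has 2 exons of 402 and 179 bp. Of its 581 exonic bp, 48 (8.26%) lie opposite the first exon of a shorter Sdc3 transcript, Sdc3-205, which begins inside the gene. The table has 1 value per gene, so the counts do not tell which of the 5 annotated Sdc3 transcripts they come from. Exon 2 of Gm12970, at chr4:130811617-130811795 on the minus strand (GENCODE M21, GRCm38), is shown because it is the exon of this gene that faces no annotated Sdc3 exon, so no base of it overlaps Sdc3 exons on the other strand:
Gm12970 exon 2: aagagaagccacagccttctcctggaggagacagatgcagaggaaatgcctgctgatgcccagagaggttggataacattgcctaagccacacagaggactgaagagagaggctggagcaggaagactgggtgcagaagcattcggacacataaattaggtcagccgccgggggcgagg

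The counts of an antisense gene depend on whether strand was used in counting, which the sources used here do not state for these counts. In the table, 460 genes lie wholly opposite exons of another gene, where counting without strand would leave 0. Of these, 31 had at least 10 counts in every library, so the counts were made by strand. Gm26716 is a further antisense gene, and all of its 415 exonic bp face the last exon of Sdc3. It had 0 counts in all 6 libraries, including the DKO libraries with 1150 and 1079 counts of Sdc3.

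The genes around Sdc3 were read next. Of 19 other genes within 500 kb, 6 had enough counts to be tested and none was called in any comparison by edgeR or DESeq2, with 1 of 6 at an unadjusted p under 0.05 in P2KO against WT, 0 in DKO against WT and 1 in DKO against P2KO (8.57%, 14.1% and 11.8% of all genes). Without WT replicate 1 there was 1 call among the 6 in DKO against WT. Laptm5, a lysosomal membrane protein of blood cells and the nearest tested gene on the side of the last Sdc3 exon, had 44 and 65 counts in WT, 41 in each P2KO library and 45 and 50 in DKO. In DKO against WT the 6 genes had a median log2 fold change of -0.03, and that of all tested genes was -0.005. The neighbour with the highest level per length was Fabp3, a carrier of fatty acids, at a mean of 76.3 RPKM.

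Further out, the nearest called genes in DKO, singled out after their values were seen, were Serinc2 on one side and Mecr on the other, in both DKO comparisons. Serinc2, 513 kb away, had 81.1 and 80.5 normalized counts in WT, 64.7 and 82.0 in P2KO and 175 and 195 in DKO, so both DKO libraries were higher (log2 fold change against WT 1.19, SE 0.172). Mecr, a reductase of mitochondrial fatty acid synthesis 1017 kb away, had 508 and 505 normalized counts in WT, 486 and 479 in P2KO and 376 and 333 in DKO, so both DKO libraries were lower (log2 fold change against WT -0.51, SE 0.101). Changes near Sdc3 thus went in either direction. A window of 5 Mb on each side, also set after values were seen, held 191 tested genes beside Sdc3 and Gm12970. Of these, 14 were called higher and 21 lower in DKO against WT (18.3%), and 12 higher and 18 lower in DKO against P2KO (15.7%). With DESeq2 on 2 genotypes the calls in DKO against P2KO were 12 in place of 30. The shares by chromosome also leave out Sdc3 and Gm12970. Over chromosome 4 the share called was 10.8% in DKO against WT, 5.31% in DKO against P2KO and 3.02% in P2KO against WT. On the other chromosomes it was 2.74%, 0.938% and 0.169%, so the higher share was not limited to the window or to DKO. In DKO against P2KO, DESeq2 on 2 genotypes called 32 genes on chromosome 4, where edgeR called 32 higher and 33 lower, and 211 on the others, where edgeR called 92 higher and 91 lower. In P2KO against WT none of the 191 was called by edgeR or DESeq2, with 17 at an unadjusted p under 0.05, beside 8.57% of all genes. There were 2 calls without WT replicate 1, 1 without P2KO replicate 2 and 1 with no filter. The part of this stretch of chromosome 4 in the Sdc3 value was not tested.

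**Figure D2:**
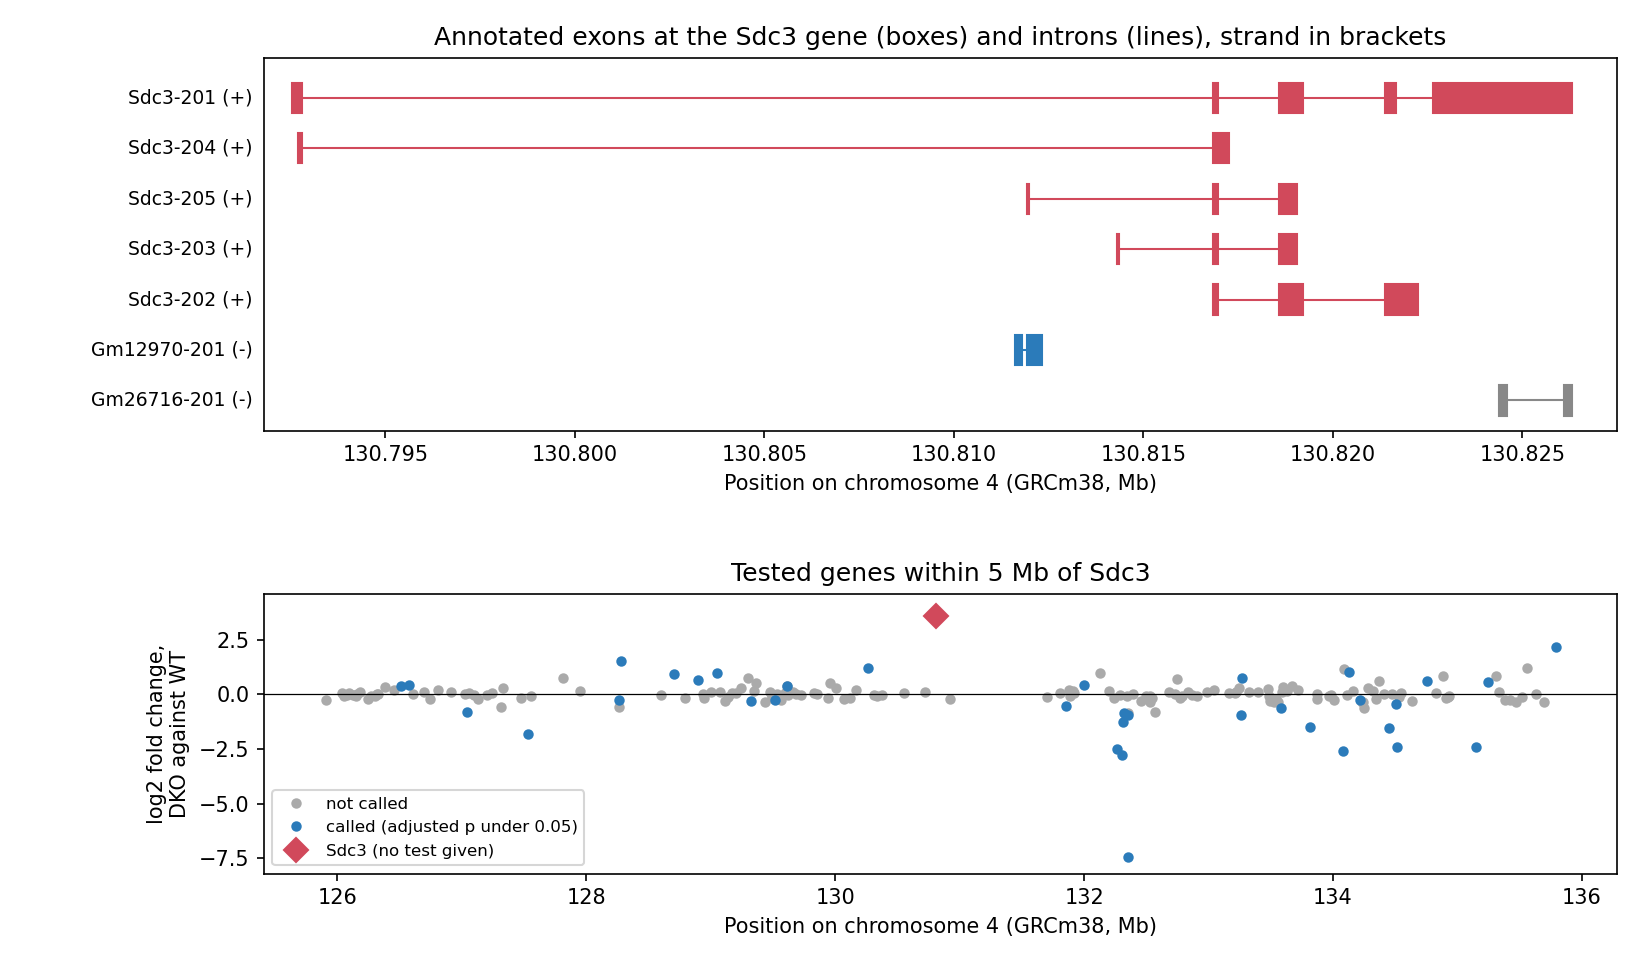
Top, exons (boxes) and introns (lines) of the annotated transcripts of Sdc3, Gm12970 and Gm26716 along chromosome 4 (x axis, Mb, GRCm38), with strand in brackets. Bottom, log2 fold change in DKO against WT (y axis) of the tested genes within 5 Mb of Sdc3, where 35 of 191 are called (blue), in both directions, and Sdc3 (diamond) stands at 3.58.

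The genes whose values over the 6 libraries were most like those of Sdc3 were found by the mean absolute difference of log2 CPM (counts scaled for library size), each centred on its own mean. Of 20743 genes, the 5 most alike were Ndufs5, 1700021J08Rik, 9530002B09Rik, E2f2 and Gm11585. The first 4 lie on chromosome 4, as do 6 of the 10 most alike, and that chromosome holds 5.91% of the genes compared. The ranking rests on the Sdc3 values on which the family was selected. These shares are therefore a description and carry no test. Ndufs5, a subunit of mitochondrial complex I, had 79 and 81 counts in WT, 80 and 79 in P2KO and 577 and 529 in DKO. Its mean difference from Sdc3 was 0.35 (log2). Near-identical copies were searched for the 5 members only, so whether Ndufs5 shares reads with another gene was not tested. 1700021J08Rik, an antisense gene, had 3 counts in each WT library, 1 and 0 in P2KO and 102 and 87 in DKO. 9530002B09Rik had 2 and 0 counts in WT, 2 and 0 in P2KO and 89 and 80 in DKO. These 3 genes shared with Sdc3 low values in WT and P2KO and high values in both DKO libraries. In 1700021J08Rik and 9530002B09Rik the WT and P2KO counts were near 0, where the prior count makes log2 differences smaller.

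E2f2, a transcription factor of the cell cycle, was high in DKO with 318 and 373 counts but also in 1 P2KO library, with 257 and 47 counts, while WT had 38 and 59. Gm11585, a pseudogene on chromosome 11, was at 1 and 11 counts in WT, 7 and 2 in P2KO and 30 and 31 in DKO, which is few. Gm12970 ranked 17319 by this measure, since its difference between DKO and the rest is larger than that of Sdc3. It ranked 1 by Pearson's correlation over the same 6 libraries. By that correlation Ndufs5 ranked 3, 9530002B09Rik 14, 1700021J08Rik 20, Gm11585 415 and E2f2 1045. The other syndecans ranked 5202 (Sdc1), 12533 (Sdc4) and 17020 (Sdc2) by the first measure, and their Pearson correlations with Sdc3 were 0.303, -0.252 and -0.636. The 6 libraries fall into 2 separate levels of Sdc3, and these ranks are a description only.

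Heparan sulphate chains are built on syndecan core proteins by a chain of enzymes, and the genes of that pathway were read as 7 lists. Of 107 listed genes all were in the table and 95 were tested, and the 12 others had at most 17 counts in any library. Hspg2 was the only gene called in each of the 3 comparisons. It was called higher each time, which makes 1 of 95 higher and 0 lower beside the 0.198%, 2.06% and 0.607% of all genes called higher. For the 95 genes, the log2 fold change had a median of 0.04 in P2KO against WT, 0.06 in DKO against WT and 0.01 in DKO against P2KO, and that of all tested genes was 0.004, -0.005 and -0.003. Without WT replicate 1 the calls were 3 in P2KO against WT and 5 in DKO against WT, in fits that called 1.43% and 4.89% of all genes. In DKO against P2KO there were 2 without WT replicate 2, where 2.92% of all genes were called, and 0 without P2KO replicate 2 or without DKO replicate 2.

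Hspg2 (ENSMUSG00000028763) encodes perlecan, a heparan sulphate proteoglycan of basement membranes. It had 444 and 387 normalized counts in WT, 653 and 617 in P2KO and 828 and 882 in DKO. The 3 genotypes did not overlap, with P2KO between WT and DKO. The log2 fold change was 0.62 in P2KO against WT (SE 0.0943, adjusted p = 1.15e-04), 1.04 in DKO against WT (SE 0.0924, adjusted p = 3.00e-10) and 0.43 in DKO against P2KO (SE 0.0877, adjusted p = 0.00496), all by edgeR. The last call was lost without P2KO replicate 2 (adjusted p = 0.0906) and without DKO replicate 2 (adjusted p = 0.174), within a range from 1.29e-04 to 0.174 over the alternatives. Hspg2 also lies on chromosome 4, at chr4:137468769-137570630, 6.64 Mb from Sdc3.

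Among the other core proteins, the glypicans (anchored to the membrane by a lipid) and further proteoglycans, 11 of 12 genes were tested and Hspg2 was the 1 called. The highest level per length in that list was that of Srgn, the proteoglycan of secretory granules, at a mean of 5.81 RPKM over the 6 libraries. Over the 11 tested genes the median log2 fold change in DKO against WT was 0.04. Cd44 was not tested, with at most 9 counts.

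The enzymes that make the chains were read list by list. In the list for the linker and the chain, which includes the polymerases Ext1 and Ext2, 0 of 12 were called in any comparison by edgeR or DESeq2, with 3, 1 and 2 at an unadjusted p under 0.05 in P2KO against WT, DKO against WT and DKO against P2KO (8.57%, 14.1% and 11.8% of all genes). Without WT replicate 1, Ext1 was called in P2KO against WT. The median log2 fold change in DKO against WT was 0.14, and Extl2 had the highest level at 7.80 RPKM. For the enzymes that modify the chain (deacetylases, an epimerase and sulphotransferases), 14 of 18 were tested, 0 were called by edgeR or DESeq2, and 2, 2 and 1 had an unadjusted p under 0.05. Their median in DKO against WT was 0.07, and Ndst2, which was called in DKO against WT without WT replicate 1, had the highest level at 8.28 RPKM. For the enzymes that break the chains down, 0 of 10 were called by edgeR or DESeq2 and 0 had an unadjusted p under 0.05, with a median of -0.05 and the highest level in Naglu at 18.3 RPKM.

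Genes whose products act on syndecan proteins were read in the same way. Among the proteases that release the outer domain from the cell and their inhibitors, 9 of 11 were tested and 0 were called by edgeR or DESeq2, with 0, 3 and 0 at an unadjusted p under 0.05, beside the same shares of all genes (8.57%, 14.1% and 11.8%). In P2KO against WT all 9 were fitted higher, with a median log2 fold change of 0.16. In DKO against WT 8 were fitted higher and 1 lower, and in DKO against P2KO 4 were higher and 5 lower. The median in DKO against WT was 0.17, and Timp2, an inhibitor that was called in DKO against WT without WT replicate 1, had the highest level at 40.3 RPKM. Among the 17 partners of the cytoplasmic tail 0 were called by edgeR or DESeq2, with 1, 0 and 1 at an unadjusted p under 0.05, a median in DKO against WT of 0.05 and the highest level in Dnm2 at 47.3 RPKM. Without WT replicate 1, Tiam1 of this list was called in both knockouts against WT. Among the ligands and co-receptors, 22 of 27 were tested and 0 were called by edgeR or DESeq2, with 2, 5 and 3 at an unadjusted p under 0.05, a median of 0.10 and the highest level in Itgb1 at 11.5 RPKM. Of these, Fn1 was called in DKO against WT without WT replicate 1 and Fgfr3 in DKO against P2KO without WT replicate 2. These counts do not show that the genes were unaltered, since changes below what 2 mice per genotype can resolve would not be called.

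**Figure D3:**
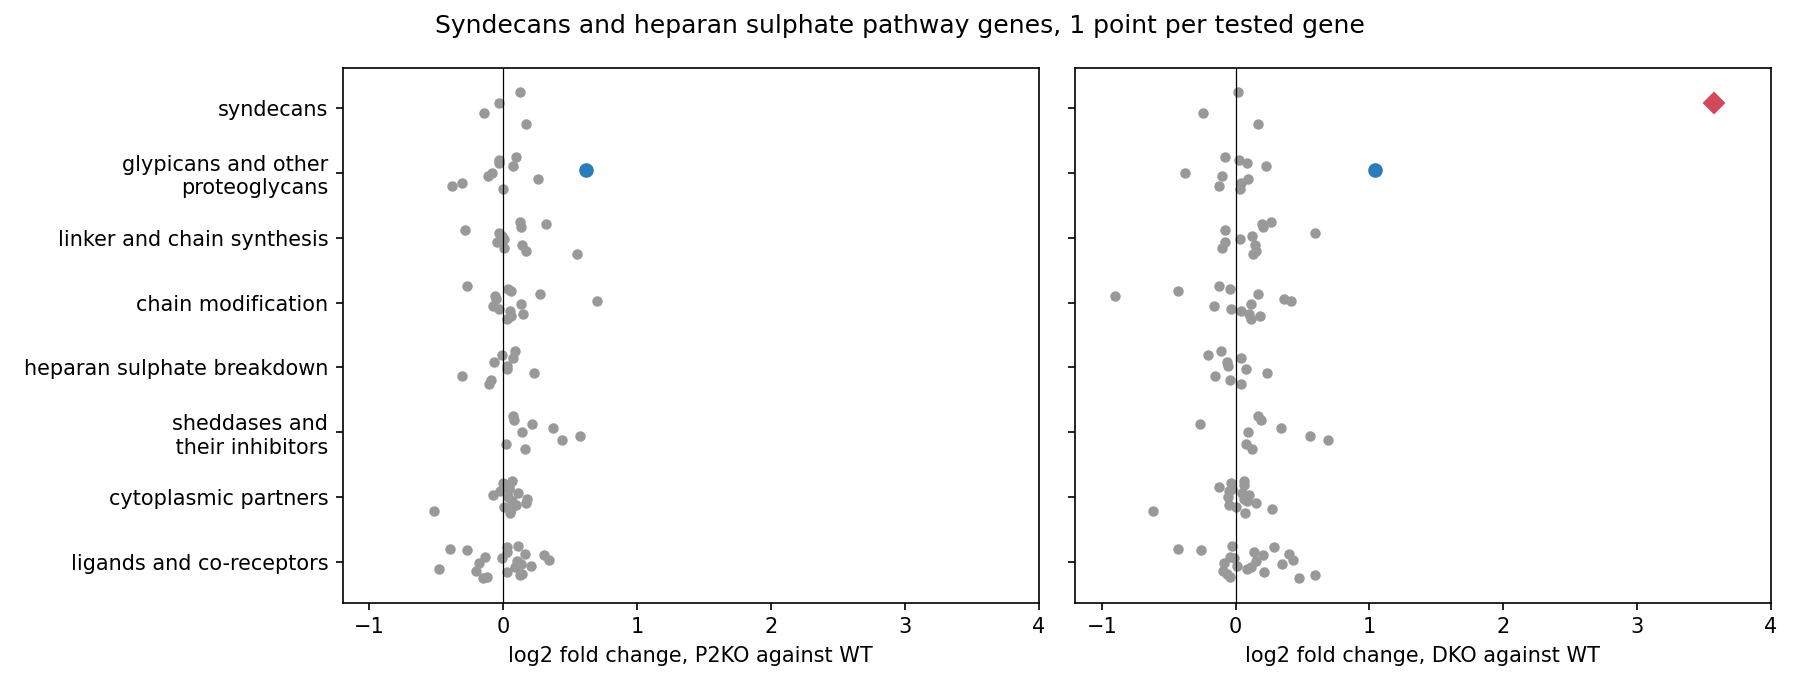
Log2 fold change (x axis) of the 4 syndecans and of each tested gene of the 7 lists (rows), in P2KO against WT (left) and DKO against WT (right), with 1 point per gene, called genes in blue and Sdc3 in DKO as a diamond. Hspg2 is the 1 called point, at 0.62 and 1.04, and the other list genes scatter around 0, from -0.90 to 0.70 over both panels.

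Markers of the cell types of the testis were read beside these values. Among spermatid and spermatocyte markers, Prm2 had the highest mean level at 5670 RPKM and Ldhc stood at 1595 RPKM. Of 8 Leydig cell markers, 4 were called higher (Cyp11a1, Cyp17a1, Hsd3b6 and Star) and 1 lower (Hsd3b1) in DKO against WT, beside 2.06% and 1.16% of all genes. The summed level of the 8 was 276 and 275 RPKM in WT, 301 and 275 in P2KO and 347 and 292 in DKO, with Cyp17a1 the most abundant at 146 RPKM and no marker at 0. Leydig cells make testosterone, and Star, which brings cholesterol into the mitochondrion, had 2175 and 1967 normalized counts in WT, 2825 and 2054 in P2KO and 2968 and 2923 in DKO. Its log2 fold change in DKO against WT was 0.51 (SE 0.0857) by edgeR. Without DKO replicate 1, Star was the only one of the 5 still called, and DESeq2 on 6 libraries called 2, Hsd3b1 and Hsd3b6. DESeq2 on 2 genotypes called these and Star. The call of Cyp11a1 was also lost with upper-quartile scaling and with edgeR on 2 genotypes. In DKO against P2KO 1 of 8 was called, Hsd3b6, with a log2 fold change of 0.63 (SE 0.0720), beside 0.607% of all genes called higher. Of the 8 markers, 3 were fitted higher and 5 lower in DKO against P2KO, with log2 fold changes from -0.44 to 0.63. With edgeR on the 2 genotypes alone, without WT replicate 1 or without WT replicate 2, the calls were 4, Hsd3b1, Hsd3b6, Lhcgr and Star. Star was added with no filter and without P2KO replicate 1, and Cyp17a1 without DKO replicate 2.

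The part of Leydig cells in the Sdc3 value was not tested. In P2KO against WT, 0 of 8 Leydig markers were called by edgeR or by DESeq2 on 6 libraries and 1, Cyp11a1, by DESeq2 on 2 genotypes, with 4 at an unadjusted p under 0.05, beside 8.57% of all genes. Other edgeR fits did call some. Cyp11a1 was called with no filter and without WT replicate 2, DKO replicate 1 or DKO replicate 2, Star without P2KO replicate 2, and Cyp11a1, Hsd3b1 and Star without WT replicate 1. The last of these fits called 1.43% of all genes, and the others from 0.244% to 0.414%.

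Of 6 spermatid markers, Prm1 and Tnp1 were called lower in DKO against WT (log2 fold changes -0.22 and -0.25), Tnp2 in P2KO against WT (-0.29) and Spaca1 in DKO against P2KO (-0.25), beside 1.16%, 0.14% and 0.598% of all genes called lower. At an unadjusted p under 0.05 there were 6 of 6 in P2KO against WT, 4 in DKO against WT and 2 in DKO against P2KO, beside 8.57%, 14.1% and 11.8% of all genes. Fitted values went both ways, with 2 of 6 higher and 4 lower in P2KO against WT. These counts were 1 and 5 in DKO against WT, and 2 and 4 in DKO against P2KO. The summed level of the 6 markers was 19210 and 20069 RPKM in WT, 15982 and 17903 in P2KO and 17271 and 17544 in DKO, with none at 0. Each of these calls was lost without at least 1 library. Prm1 was lost without WT replicate 2 or either DKO library, Tnp1 without either DKO library, Tnp2 without P2KO replicate 1, and Spaca1 without P2KO replicate 1 or either DKO library. DESeq2 on 6 libraries called none of Prm1, Tnp1 and Spaca1 in these comparisons, and neither did edgeR with an offset for gene length, where Prm1 was at -0.12 and Tnp1 at -0.15. Other fits added calls. In P2KO against WT these were Prm1 and Tnp1 with no filter, without WT replicate 1 and without P2KO replicate 2, and Prm2 with no filter. In DKO against WT they were Tnp2 with no filter and without WT replicate 1, and Prm2 with no filter. In DKO against P2KO Tnp2, at a log2 fold change of 0.15, was called higher with no filter, with the length offset, with either tool on 2 genotypes, and without either WT library.

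In the 10 other marker lists 0 of 51 tested genes were called in any comparison by edgeR with TMM scaling over 6 filtered libraries or by DESeq2, and 7, 7 and 9 had an unadjusted p under 0.05 in P2KO against WT, DKO against WT and DKO against P2KO, beside 8.57%, 14.1% and 11.8% of all genes. In DKO against WT, Hbb-bs was called by edgeR on the 2 genotypes alone, with RLE or upper-quartile scaling and with scaling off chromosome 4. With no filter, Hba-a1 and Hbb-bs were called in P2KO against WT and in DKO against WT. Leaving out 1 library also added calls. All calls of these lists against WT were of lower values in the knockout. The 3 tested blood markers had a median log2 fold change of -0.64 in P2KO against WT and -0.61 in DKO against WT, with 2 at an unadjusted p under 0.05 in each. Without WT replicate 1 these were Cd68, Cfd, Hba-a1, Hbb-bs and Lyz2 in P2KO against WT and Hba-a1 and Hbb-bs in DKO against WT. Hba-a1 and Hbb-bs were called in P2KO against WT without P2KO replicate 2 and in DKO against WT without P2KO replicate 1, and Hbb-bs in DKO against WT without P2KO replicate 2. Dmrt1 was called lower in DKO against P2KO without WT replicate 2, and Hba-a1 higher without P2KO replicate 2. The most abundant genes of these lists were Amhr2 (Sertoli, 84.5 RPKM), Acta2 (peritubular myoid, 12.1 RPKM), Lyz2 (macrophage, 11.1 RPKM) and Cdh5 (endothelial, 1.10 RPKM). They were Uchl1 for spermatogonia (25.2 RPKM), Rnase10 for epididymis (2.77 RPKM), Adipoq for adipose tissue (4.92 RPKM) and Hba-a1 for blood (10.1 RPKM). Sdc3 is best known from nerve, and the summed level of the 6 Schwann cell and nerve markers was 5.32 and 5.79 RPKM in WT, 5.13 and 4.67 in P2KO and 5.69 and 5.13 in DKO. The DKO sums overlapped those of WT and those of P2KO, and both WT sums lay above both P2KO sums. Of the 6 epididymis markers, 5 had too few counts to be tested. All 9 tested Sertoli markers were fitted higher in P2KO against WT (median log2 fold change 0.10). In DKO against P2KO all 9 were fitted lower (median -0.15), and in DKO against WT 2 were higher and 7 lower (median -0.05). Of the 5 tested endothelial markers, 4 were fitted higher and 1 lower in DKO against WT (median 0.43). The median of all tested genes there was -0.005.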

How the data were processed

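The authors prepared strand-marked poly(A) libraries from whole testis and trimmed reads with Trim Galore and cutadapt. The deposited counts per gene came from STAR (GeneCounts), run by the authors on the GRCm38 genome. Versions of these tools and the strand column used are not given in the sources used here. The 55536 genes were matched to GENCODE M21 for names, coordinates and lengths. Counts were scaled by TMM, filtered with filterByExpr (minimum count 10; 20744 genes kept) and fitted over 6 libraries with the quasi-likelihood test of edgeR 4.0.16 (limma 3.58.1, R 4.3.3), which leaves 3 residual degrees of freedom. The common biological coefficient of variation was 0.0508. DESeq2 1.42.0 was run as an alternative, and scripts were tested on simulated data.

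The named genes are the 5 members, Padi2 and Padi4, the nearest tested neighbours, the 5 genes most like Sdc3, the called genes of each list (at most 5) and the most abundant gene of each list. The members and lists were chosen with earlier results of these data known. Other scalings, filters, tools, a gene length offset, a larger prior count, leaving out each library, Pearson's correlation and another transcript length were tried. Shared sequence was searched with BLAST 2.17.0, for the 5 members only. Sdc3 and Gm12970 stayed in the fit and in the shares over all genes, but not in the shares by window or chromosome. No p is given for them in the DKO comparisons. Protein sequences were not available, and transcripts could not be separated. Some genes and sequences that the rule on named genes would include are not reported here.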

Additional observations from a re-analysis of the deposited data

How the results depend on the processing

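With 2 mice per genotype, each result rests on few libraries, and small changes would be missed. The log2 fold change of Sdc3 ranged from 3.51 to 3.65 in DKO against WT and from 3.58 to 3.63 in DKO against P2KO over 17 alternatives. The bounds for Gm12970 ranged from 93.9-fold to 114-fold and from 99.5-fold to 120-fold over 12 alternatives. No alternative that gave an adjusted p called Sdc1, Sdc2 or Sdc4 in any comparison, or Sdc3 in P2KO against WT; DESeq2 on 2 genotypes gave none for Sdc1 and Sdc2 in DKO against P2KO. The lowest adjusted p was 0.225, for Sdc2 in DKO against WT. Where results changed, the cause was not tested.

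In P2KO against WT, 70 genes were called. This became 140 with no filter, 41 with DESeq2 on 6 libraries, 40 with DESeq2 on 2 genotypes, and 53 to 311 when 1 library was left out. In DKO against WT, 668 became 404 and 296 with DESeq2 on 6 libraries and on 2 genotypes, and 250 to 1065 when 1 library was left out. In DKO against P2KO, 250 became 162 with DESeq2 on 6 libraries, 579 with edgeR on 2 genotypes, and 108 to 622 when 1 library was left out.

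The labels give replicate numbers but do not say whether equal numbers pair mice. Differences between replicate 1 and replicate 2 correlated across tested genes at -0.0572 (WT and P2KO), 0.0574 (WT and DKO) and -0.0502 (P2KO and DKO). These values do not decide whether mice were paired. With replicate number as a replicate block, the calls were 45, 555 and 189, and Cyp11a1 in DKO against WT and Spaca1 in DKO against P2KO were not called.

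Small differences turned direction. When 1 library was left out, the log2 fold change of Sdc1 ranged from -0.0269 to 0.415 in P2KO against WT, from -0.0253 to 0.418 in DKO against WT and from -0.0652 to 0.0756 in DKO against P2KO. Sdc3 ranged from -0.0976 to 0.0458 in P2KO against WT. Sdc4 ranged from -0.0305 to 0.0628 in DKO against WT and from -0.208 to 0.00466 in DKO against P2KO. In DKO against P2KO, Sdc2 ranged from -0.215 to 0.0220 and Padi2 from -0.396 to 0.293. Upper-quartile scaling gave -0.00226 for Sdc4 in DKO against WT. For Sdc1 in DKO against P2KO it gave -0.00615, no filter -2.23e-05 and a mean of at least 50 counts -0.00258.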
